A study of Homo sapiens with 6 samples.

Results

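The cadherin superfamily is the set of calcium-dependent adhesion proteins built from repeated extracellular cadherin domains. Its genes were chosen by symbol: CDH, PCDH, DSG or DSC followed by a number or a cluster code, FAT1 to FAT4, DCHS1, DCHS2 and CELSR1 to CELSR3. The rule took 111 symbols of the RefSeq gene table, 65 of which had a probe set named on the array, out of 21448 probe sets in all. Each of the 65 genes had 1 probe set. The other 46 symbols, among them CDH4, CDH13, CELSR3 and all 40 symbols of the PCDHA and PCDHG clusters, were not analysed here.

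Messenger RNA of K562 cells, a long-established human leukaemia line with erythroid traits, was read on 6 arrays of 1 colour each. Cells carrying a vector for the microRNA miR-543, labelled as overexpressing it, gave 3 arrays, and cells carrying a control vector gave 3 arrays. The level of miR-543 itself was not analysed here. The study's title gives TET1 and TET2, which oxidise methylated cytosine in DNA, as targets of this microRNA. No source used here gives the vector type, the clonality of the transfected cells, the time after transfer or whether replicates were separate cultures, so the spread behind each p-value is that of these arrays and may be technical. Signals are the authors' normalized values on the log2 scale, and each change is the mean with the miR-543 vector less that with the control vector, so that a log2 change of 1 is a 2-fold difference. In such bulk RNA fewer cells of a type and less RNA per cell cannot be told apart. A gene was called at an adjusted p under 0.05 over all probe sets with limma.

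Classical cadherins bind a like molecule on the next cell, and their tails hold beta-catenin and p120 catenin, which link them to actin. Desmosomal cadherins, the desmogleins and desmocollins, bind plaque proteins that hold intermediate filaments. Protocadherins, most of them found in neurons, give cells an identity or a weak adhesion, and the giant FAT, Dachsous and CELSR proteins act in growth control and in planar polarity. In bone marrow E-cadherin is known on early red cell precursors and VE-cadherin on endothelium.

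The microRNA and the stretches before the transcript starts of the 2 called cadherin genes are shown here as a description. A link between these sequences and the changes was not tested. The mature miR-543 of RefSeq (GRCh38.p14, chr14:101032033-101032054, plus strand) is given with its seed, bases 2 to 8, in capitals. The 250 bases before the outermost listed start of FAT1 (chr4:186726697-186726946, minus strand) and of CDH18 (chr5:20575714-20575963, minus strand), also from RefSeq on GRCh38.p14, have each CG pair in capitals, the pair at which DNA is methylated and TET enzymes act. Matches of the seed to the cadherin mRNAs were not analysed here.
hsa-miR-543: aAACAUUCgcggugcacuucuu
FAT1 upstream: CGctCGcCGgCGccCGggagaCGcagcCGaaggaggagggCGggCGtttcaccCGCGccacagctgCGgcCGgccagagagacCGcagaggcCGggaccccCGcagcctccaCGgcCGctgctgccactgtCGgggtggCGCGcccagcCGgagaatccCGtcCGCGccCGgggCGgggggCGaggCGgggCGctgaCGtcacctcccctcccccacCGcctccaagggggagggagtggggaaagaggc
CDH18 upstream: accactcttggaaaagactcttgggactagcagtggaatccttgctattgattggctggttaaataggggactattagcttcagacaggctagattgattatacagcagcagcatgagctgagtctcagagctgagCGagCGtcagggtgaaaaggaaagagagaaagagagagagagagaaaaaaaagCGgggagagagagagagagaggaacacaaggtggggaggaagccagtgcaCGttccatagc

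These windows differed in CG content. FAT1 held 32 CG pairs before each of its 2 listed starts, more than 90.5% of the 35116 windows of the table. CDH18 held 4, 15 and 3 CG pairs before its 3 listed starts, and the median over all windows was 11. DCHS2, whose values follow further on, had 23 pairs before its only listed start. The 46 cadherin genes found in the table had 62 windows with a median of 7 CG pairs. The letters CACCTG, searched on both strands as the site known to bind repressors of E-cadherin, were in none of the FAT1, CDH18 and DCHS2 windows, in 11.3% of cadherin windows and in 17.5% of all windows. E-cadherin itself, CDH1, was among the 19 cadherin genes without a window in the table, so its own promoter was not searched. Which start K562 cells use was not measured, nor was methylation.

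Signals of different genes cannot be ordered, since probe sets differ in how strongly they bind, but the place of a gene on the array shows where a change could be read. Only 8 of the 65 genes had a mean above the median of all probe sets: FAT1, DCHS2, CDH18, CDH12, CDH24, DSC2, DSG2 and PCDHB11. Another 21 lay between the lower quartile and the median, and 36 lay below the lower quartile. On each array taken by itself 56 genes were below that array's median on all 6 arrays and 7 were above it on all 6. CDH18 was above it on 4 arrays, and PCDHB12, a clustered protocadherin, on 1. Most of the superfamily thus lay at low signals, and whether those mRNAs were present was not tested.

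**Figure D1:**
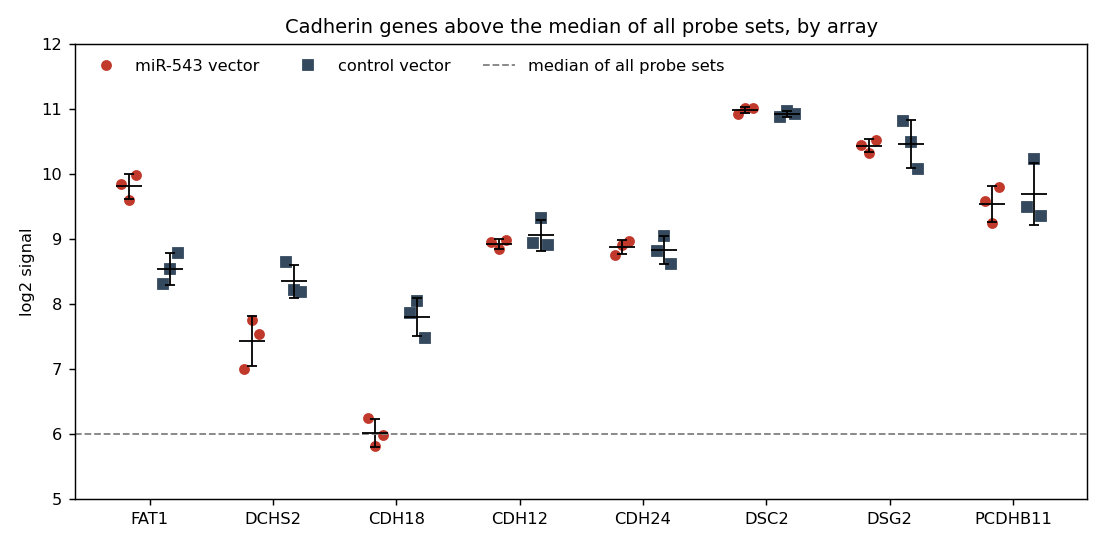
Log2 signal (vertical axis) of the 8 cadherin superfamily genes whose mean lay above the median of all probe sets, by array. Red circles are the 3 miR-543 vector arrays and dark squares the 3 control vector arrays, with the mean and SD in black, and the dashed line is the median of all probe sets, 6.0. The groups stand apart for FAT1, DCHS2 and CDH18 and overlap for the other 5 genes.

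The comparison of the vectors called 2 of the 65 genes, both among the 8 at higher signals (2 of 8). Over all probe sets 122 were called (0.569%), 28 higher (0.131%) and 94 lower (0.438%), and among probe sets above the median the share was 0.923%. Of the cadherin genes 1 was called higher and 1 lower, too few to read a direction or a share from. At an unadjusted p under 0.05 there were 10 cadherin genes (15.4%), against 10.6% of all probe sets. That count was lower with other processing and without single arrays. It was 8 with equal array medians or a further quantile normalization, where all probe sets gave 2242 and 2259 in place of 2276. With a variance prior that follows the signal and is robust to outliers it was 7, where all probe sets gave 2480. Array weights also gave 7. The count was 5 without control replicate 3, where all probe sets gave 2453, and 6 without miR-543 replicate 3, where they gave 1988. All 3 miR-543 arrays lay above all 3 control arrays for 7 genes (10.8%, against 7.89% of all probe sets) and below them for 4 (6.15%, against 7.50%). The shares of genes without overlap are near those of the array as a whole.

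CDH18, a type II classical cadherin known mainly from the nervous system, fell 3.45-fold. Its signals were 6.24, 5.81 and 5.98 with the miR-543 vector, against 7.86, 8.05 and 7.48 with the control vector. The groups did not overlap, and the miR-543 arrays lay near the array median. The log2 change was -1.79 (SE 0.18, 95% interval -2.19 to -1.38, limma adjusted p = 0.00316). It kept its call without any one of the 6 arrays, with a log2 change between -1.95 and -1.66.

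FAT1, a giant atypical cadherin that regulates actin and cell growth, rose 2.41-fold. Its signals were 9.84, 9.60 and 9.99 with the miR-543 vector, against 8.30, 8.53 and 8.79 with the control vector. The lowest miR-543 array was above the highest control array, and both groups were well above the array median. The log2 change was 1.27 (SE 0.17, 95% interval 0.89 to 1.65, limma adjusted p = 0.00998). The call was lost without control replicate 1 (log2 change 1.15, adjusted p = 0.0619) or without miR-543 replicate 1 (1.26, adjusted p = 0.0518). The change of FAT1 minus that of CDH18 was 3.06 on the log2 scale, a description only, since these genes were taken for their opposite calls.

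DCHS2, a relative of the Dachsous ligand that FAT4 binds, did not pass. It had signals of 7.0, 7.75 and 7.54 with the miR-543 vector, against 8.64, 8.22 and 8.18 with the control vector. All 3 miR-543 arrays were lower, but their spread (SD 0.387, against 0.255 for the control arrays) was the wider. The log2 change was -0.92 (SE 0.21, 95% interval -1.38 to -0.45, limma adjusted p = 0.123). With a variance prior that follows the signal and is robust to outliers it passed (adjusted p = 0.0406). The log2 change was -0.70 without miR-543 replicate 1, the lowest array.

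The rest of the FAT and Dachsous branch lay at low signals, with means between 3.49 and 4.25. FAT3, known from retinal neurons, had a log2 change of 0.48 (95% interval 0.10 to 0.86, limma adjusted p = 0.365). FAT4, the receptor for Dachsous ligands, had one of -0.43 (95% interval -0.81 to -0.05, adjusted p = 0.414), with all 3 miR-543 arrays (3.77, 3.43 and 4.05) below the control arrays (4.16, 4.25 and 4.13). FAT2 and DCHS1 had log2 changes of 0.16 and 0.17. Of the 6 genes of the branch 4 had an unadjusted p under 0.05, against 10.6% of all probe sets. Of these 4 genes 2 had a positive and 2 a negative change, too few to read a share or a direction from. FAT3 and FAT4 among them lay below the lower quartile, where 0 of 5360 probe sets were called. The median change of the branch was 0.17.

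**Figure D2:**
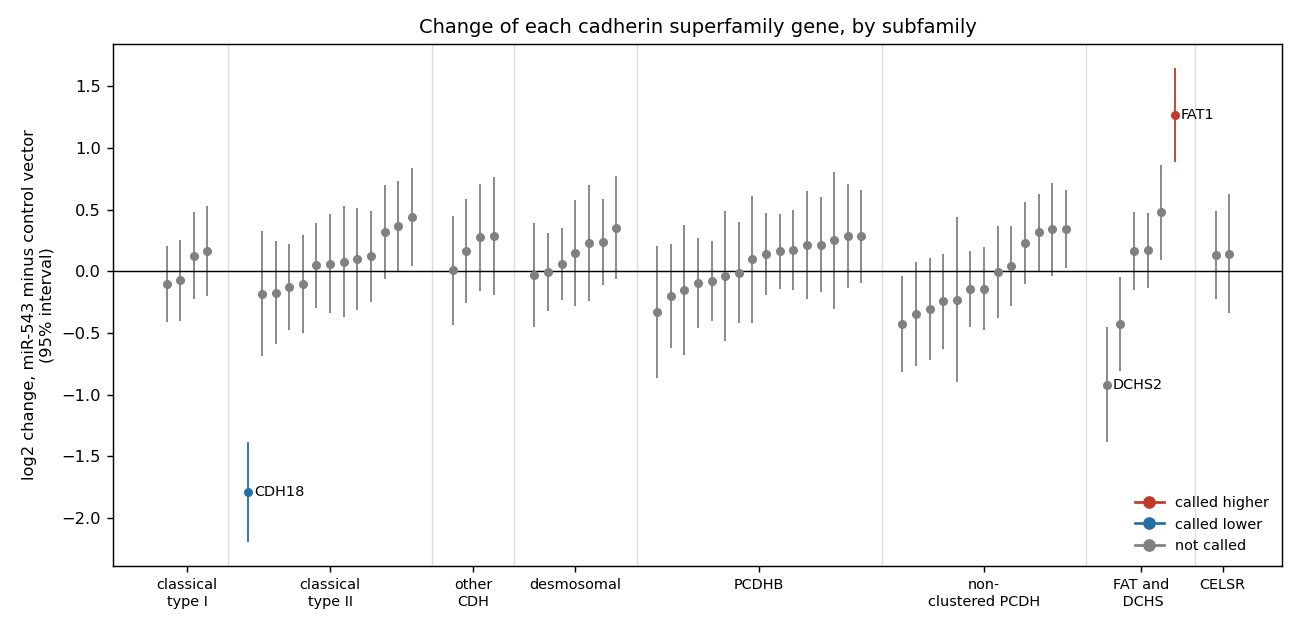
Log2 change, miR-543 vector minus control vector (vertical axis), with its 95% interval for each of the 65 cadherin superfamily genes, ordered by change within each subfamily along the horizontal axis. FAT1 (red) was called higher and CDH18 (blue) lower, and the other 63 genes (grey) lay between -0.92 and 0.48.

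None of the other 12 type II cadherins was called. CDH12, a brain cadherin, had signals of 8.95, 8.84 and 8.99 with the miR-543 vector, against 8.94, 9.32 and 8.90 with the control vector. CDH24, which also binds catenins, had 8.76, 8.90 and 8.97, against 8.81, 9.05 and 8.62. In both genes the groups overlapped, and the log2 changes were -0.13 (95% interval -0.47 to 0.22) and 0.05 (-0.29 to 0.39). At low signals CDH20 had a log2 change of 0.44, CDH11, known from mesenchymal cells, one of 0.37, and CDH10 one of 0.32, with limma adjusted p-values of 0.422, 0.467 and 0.566. VE-cadherin, CDH5, had signals of 3.64, 3.74 and 3.41 with the miR-543 vector, against 3.41, 3.27 and 3.74 with the control vector, all below the lower quartiles of the arrays. Over the 13 type II genes 8 changes were above 0 and 5 below, with a median of 0.06.

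The genes next to CDH18 on chromosome 5 were not called. In the gene order of the RefSeq table the nearest measured genes are BASP1 and MYO10 on one side and CDH12 and PRDM9 on the other, a choice of genes made after their values had been seen. BASP1 and MYO10 had log2 changes of 0.21 and -0.02. PRDM9, a meiotic histone methyltransferase, had 6.06, 6.05 and 5.92 with the miR-543 vector, against 6.39, 6.30 and 6.83 with the control vector, a log2 change of -0.50 that did not pass (limma adjusted p = 0.322). Beside FAT1 on chromosome 4, MTNR1A, ZFP42 and TRIML2 had log2 changes of 0.04, -0.20 and -0.11. F11-AS1, a non-coding RNA on the antisense side of the clotting factor gene F11, fell 2.60-fold, with 4.6, 4.30 and 4.62 with the miR-543 vector, against 5.59, 6.15 and 5.91 with the control vector. Its limma adjusted p was 0.00795, and 0.0531 without control replicate 3. Around DCHS2, RNF175, SFRP2, PLRG1 and FGB had changes between -0.08 and -0.05.

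Type I cadherins, the best known adhesion molecules of the superfamily, were at low signals throughout. E-cadherin, CDH1, had 3.98, 4.06 and 3.66 with the miR-543 vector, against 3.96, 3.61 and 3.64 with the control vector. N-cadherin, CDH2, had 3.41, 3.78 and 3.66, against 3.58, 3.61 and 3.28. The groups overlapped for both, with log2 changes of 0.16 (95% interval -0.20 to 0.53) and 0.13 (-0.23 to 0.48). The change of CDH2 minus that of CDH1, the balance often read as a switch between epithelial and mesenchymal state, was -0.04 (two-sided exact permutation p = 1, where 0.1 is the smallest that 3 arrays against 3 can give). P-cadherin, CDH3, and the muscle cadherin CDH15 had log2 changes of -0.07 and -0.10. Among the remaining CDH genes the intestinal CDH17 had one of 0.28, the hair cell protein CDH23 one of 0.29, the kidney cadherin CDH16 one of 0.16 and CDH26 one of 0.01, and none was called (limma adjusted p between 0.684 and 0.993). The 95% intervals of all 4 took in 0. Without miR-543 replicate 2 the log2 changes were 0.12 for CDH17, 0.03 for CDH23 and 0.03 for CDH16, and without control replicate 3 that of CDH16 was 0.01. The change of CDH26 lay between -0.16 and 0.15 with each array left out in turn.

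Desmosomal cadherins held 2 of the 8 genes at higher signals, and neither was called. Desmocollin 2, DSC2, had 10.93, 11.02 and 11.01 with the miR-543 vector, against 10.88, 10.97 and 10.93 with the control vector. Desmoglein 2, DSG2, had 10.44, 10.33 and 10.53, against 10.82, 10.49 and 10.07. DSC2 had a log2 change of 0.06 (95% interval -0.23 to 0.35) and DSG2 one of -0.03 (-0.45 to 0.40). These 2 genes are the desmosomal pair of simple epithelia and heart muscle. The skin desmosomal genes DSC1, DSC3, DSG1, DSG3 and DSG4 had means between 3.15 and 4.86 and log2 changes between -0.01 and 0.35, the highest for DSG4 (limma adjusted p = 0.557).

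The cytoplasmic partners of these cadherins were given as lists compiled from general knowledge. Over all probe sets 0.569% were called, so a count of 0 in this or a later list does not show that its genes were unchanged. Of 10 measured catenins and related linkers 0 were called, 7 had changes below 0, and the median was -0.21, while the median over all probe sets was 0.01. Plakoglobin, JUP, which serves both junctions, had 10.06, 10.02 and 10.10 with the miR-543 vector, against 10.36, 10.94 and 10.31 with the control vector. The groups did not overlap, but its log2 change of -0.48 did not pass (limma adjusted p = 0.393). CTNNAL1, an alpha-catenin relative, had one of -0.35 (adjusted p = 0.417), and alpha-catenin, CTNNA1, and beta-catenin, CTNNB1, had -0.23 and -0.20. The 3 changes above 0 were 0.28 for AFDN, 0.28 for CTNNA3 and 0.04 for VCL. In AFDN and CTNNA3 all 3 miR-543 arrays lay above the control arrays, and neither passed (limma adjusted p = 0.51 and 0.506). No direction of the list was read from these values. Of 9 desmosome plaque genes 0 were called, with 0.39 for the membrane protein PERP and a median of 0.03. The plakophilins PKP2 and PKP4 lay above the median of all probe sets (means 10.5 and 9.82). Desmoplakin, DSP, which anchors the filaments, lay below the lower quartile (mean 3.60), and whether its mRNA was present was not tested.

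Transcription factors known to repress CDH1 included the only called gene of the partner lists (1 of 8). With 0.569% of all probe sets called, 1 call among all the lists does not single out this one. TWIST1 fell 2.91-fold, with 6.21, 5.86 and 5.50 with the miR-543 vector, against 7.11, 7.72 and 7.37 with the control vector. Its limma adjusted p was 0.0114, and 0.0506 and 0.0643 without control replicates 2 and 3. ZEB1 had a log2 change of -0.74 (95% interval -1.10 to -0.37, adjusted p = 0.111), with 8.13, 7.80 and 8.20, against 8.94, 8.82 and 8.58 with the control vector. Beside these values CDH1, whose signals were given above, had a mean below the lower quartile of all probe sets. Of the 8 repressors 4 had changes above 0 and 4 below.

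Clustered protocadherins were represented by 16 genes of the beta cluster on chromosome 5, close relatives whose probes may read each other. PCDHB11 alone lay above the median of all probe sets, with 9.58, 9.24 and 9.80 with the miR-543 vector, against 9.49, 10.23 and 9.35 with the control vector. Its log2 change was -0.15 (95% interval -0.68 to 0.38), and 0.12 without control replicate 2, the highest array. The other 15 had means between 2.95 and 5.70. None of the 16 was called. Their changes ran from -0.33 for PCDHB6 to 0.28 for PCDHB4 and PCDHB16, and PCDHB3, PCDHB8 and PCDHB12 had 0.22, 0.16 and 0.21. The count was 9 above 0 and 7 below, with a median of 0.12. Of 10 measured chromatin factors known for promoter choice in these clusters 0 were called. SETDB1, a histone methyltransferase, and CTCF, the architectural protein that binds protocadherin promoters, had log2 changes of 0.29 and 0.27 (limma adjusted p = 0.468 and 0.551).

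Non-clustered protocadherins numbered 13, 1 of them Y-linked, which is included in the counts and the median but not described singly, and all lay below the median of all probe sets. PCDH11X has a near-identical copy on the Y chromosome that its probes may share. PCDH9 had a log2 change of -0.43, with 3.63, 3.59 and 4.04 with the miR-543 vector, against 4.42, 4.11 and 4.01 with the control vector. PCDH17, by contrast, had 4.85, 4.64 and 4.76, against 4.27, 4.54 and 4.42, a log2 change of 0.34 with no overlap. PCDH7 and the tip-link protein PCDH15 had 0.32 and 0.34, also without overlap. The limma adjusted p-values of these 4 genes lay between 0.426 and 0.524. PCDH1 and PCDH18 had log2 changes of -0.23 and -0.14, and that of PCDH1 was 0.15 without control replicate 3. Of the 13 changes 5 were above 0 and 8 below, and the median of -0.14 was the only negative one among the 8 subfamilies. Equal array medians or a further quantile normalization moved the median of all probe sets only from 0.013 to 0.008 or 0.007. These rescalings therefore could not test its sign. All 3 miR-543 arrays lay above the control arrays for 4 of the 13 genes (7.89% of all probe sets) and below them for 1 (7.50%). No direction of the subfamily was read from these values.

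Protocadherin partners, 10 kinases and scaffolds, held no call. CYFIP2, a subunit of the actin-regulating WAVE complex, had a log2 change of -1.0 (95% interval -1.57 to -0.43, limma adjusted p = 0.185), with 6.11, 5.43 and 5.89 with the miR-543 vector, against 6.91, 6.25 and 7.27 with the control vector. WASF3 had 0.31. CELSR1 and CELSR2, which pass polarity between neighbouring cells, had log2 changes of 0.14 (95% interval -0.34 to 0.62) and 0.13 (-0.22 to 0.49). Of 11 planar polarity genes 0 were called, with -0.35 for VANGL1 and 0.23 for DVL2. Of 20 Fat and Hippo pathway genes 0 were called, with a median of -0.08. MOB1B, an activator of LATS kinases, had 0.46 and the transcription factor TEAD3 -0.59 (adjusted p = 0.28 for both). Of 10 genes for proteases that cut cadherins, or for their subunits, 0 were called. APH1A and PSENEN, both subunits of gamma-secretase, had log2 changes of 0.45 and 0.25. Of 9 cadherin-related genes outside the symbol rule 0 were called, with 0.30 for CDHR5 and 0.29 for CLSTN1.

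**Figure D3:**
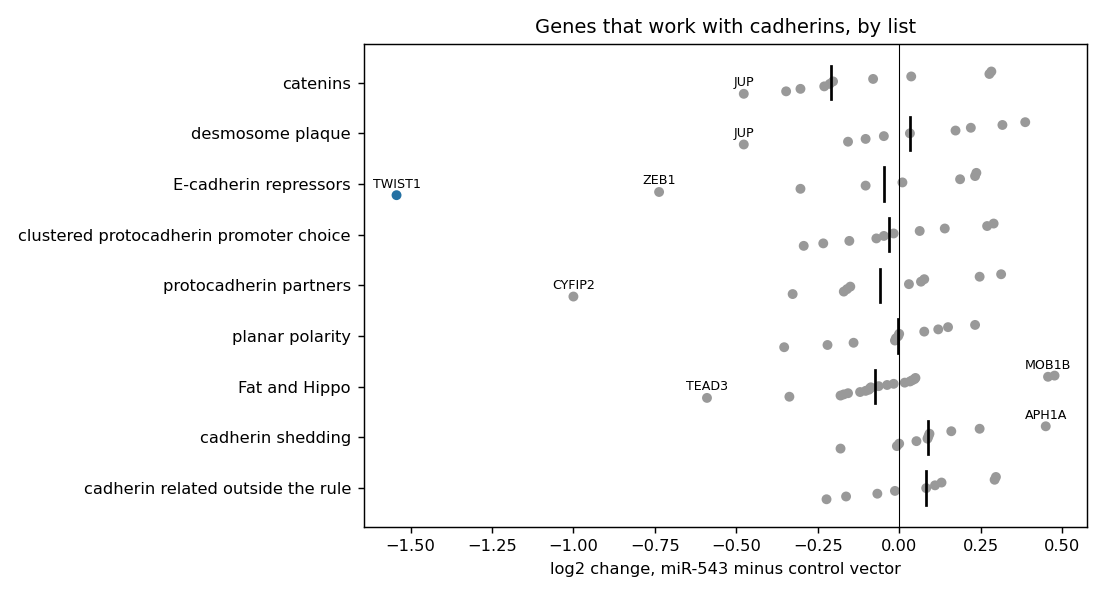
Log2 change, miR-543 vector minus control vector (horizontal axis), of the measured genes of 9 lists of proteins that act with or resemble cadherins. Points are genes, black bars are list medians, and TWIST1 (blue) was the only gene called.

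Taken by level, the 8 genes above the median of all probe sets had a median change of -0.08, with 3 above 0 and 5 below. The 21 genes between the lower quartile and the median had one of 0.10, and the 36 genes below the lower quartile one of 0.13, with 23 above 0 and 13 below. Over all probe sets the medians at these levels, in the same order, were 0.003, 0.027 and 0.02. The median signal of the 65 genes had an SD of 0.0627 between arrays of a group. Over all 65 genes 39 changes were above 0 (60%) and 26 below, with a median of 0.10, against 52.9% above 0 and a median of 0.01 over all probe sets. The median of the 65 genes was 0.06 without miR-543 replicate 2 and 0.048 without miR-543 replicate 3. Below the lower quartile 0 of 5360 probe sets were called. The 95% intervals of the 63 uncalled genes took in 0 for 55 of them and lay within 1 of 0 for 62, the exception being DCHS2. The median interval of the 65 genes reached 0.384 to either side of the change.

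**Figure D4:**
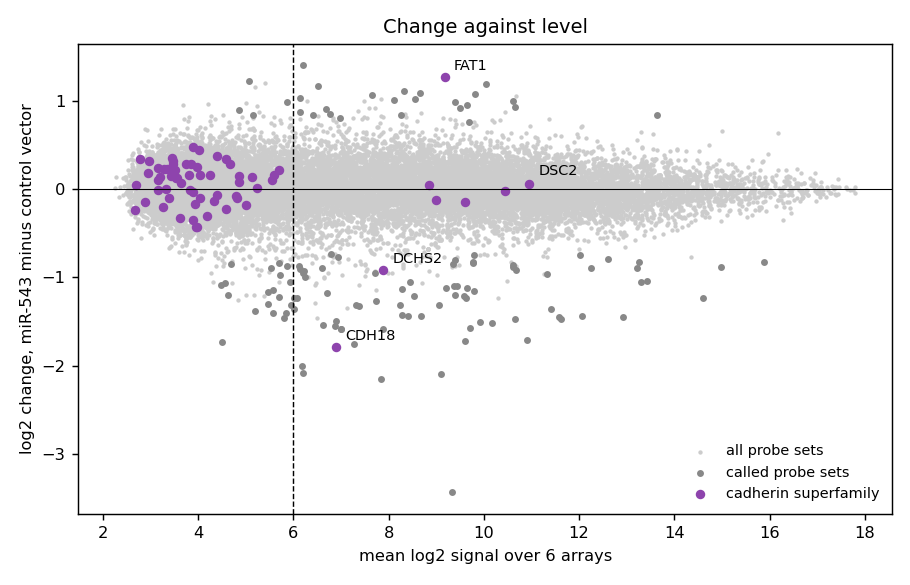
Log2 change, miR-543 vector minus control vector (vertical axis), against mean log2 signal over the 6 arrays (horizontal axis) for all 21448 probe sets (light grey), the 122 called ones (dark grey) and the 65 cadherin superfamily genes (purple). The dashed line is the median of all probe sets, and FAT1 and CDH18, the called cadherin genes, lie to its right.

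Array medians lay between 5.99 and 6.01 after the authors' normalization between arrays. Pearson's r across probe sets was 0.9945 to 0.9957 within groups and 0.9931 to 0.9951 between them. RNA quality was not analysed here. Of 9 measured erythroid markers 9 lay above the median of all probe sets, and their mean signal ran from 12.2 to 12.3 with the miR-543 vector, against 11.9 to 12.1 with the control vector. Of 10 epithelial markers 5 lay above it, EPCAM and KRT8 among them, at 7.95 to 8.09, against 8.01 to 8.05 with the control vector. Stromal markers (1 of 9 above it) ran from 4.66 to 4.77 with the miR-543 vector, against 4.30 to 4.6, endothelial ones (2 of 10) from 5.27 to 5.43, against 5.12 to 5.19, and neural ones (0 of 9) from 3.64 to 3.89, against 3.72 to 3.84. None of these 47 marker genes was called at an adjusted p under 0.05. The erythroid, stromal and endothelial means did not overlap between the groups. Their list medians of the log2 change were 0.32 (8 of 9 genes above 0), 0.19 (9 of 9) and 0.10 (7 of 10). Over all probe sets the median was 0.01, with 52.9% above 0. Of the 9 stromal genes 4 lay below the lower quartile, where 0 of 5360 probe sets were called. The part of these list differences in the cadherin values was not tested.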

How the data were processed

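Expression was measured on 6 arrays of K562 cells with biotin-labelled cDNA. The authors deposited 1 log2 signal for each probe set and array. Per the submitters' processing notes, Transcriptome Analysis Console 4.0 and RMA were used, which correct background, normalize between arrays and summarise probes. The RMA variant and genome build are not given in the sources used here. Detection calls were not used, and the number of arrays limits the precision. The table held 0 columns of other samples.

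Probe sets were named by matching the platform annotation to gene identifiers (17709 probe sets had 1 symbol, 0 had several and 3739 were unnamed here). All 65 cadherin symbols matched the RefSeq gene table of GRCh38.p14, used for names and gene order. Groups came from the sample titles. limma 3.58.1 in R 4.3.3 (lmFit and eBayes, no trend, filter or block) was fitted on all 21448 probe sets, with two-sided p-values and Benjamini-Hochberg adjustment over all of them. The prior had 6.26 degrees of freedom. The fit was tested on simulated data. No fit dropped or imputed a value.

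Named genes are every called member, up to 4 members of each subfamily with the smallest p and up to 3 with the highest mean, CDH1, CDH2 and CDH5, and, from the partner lists, calls and up to 2 genes of each list with the smallest p. Others were named as counterparts or neighbours after their values had been seen. Members, lists and rules were chosen with earlier results of these data known. No genes were ranked by likeness to CDH18 or FAT1, because their 6 values fall into 2 separate groups. Alternatives were other variance priors, rescaling, a filter at the median, array weights, a replicate block, no moderation, a test against a log2 change of 0.5 and leaving out each array. Promoter windows are the 250 bases before each listed start, from RefSeq.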

Additional observations from a re-analysis of the deposited data

How the results depend on the processing

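CDH18 kept its call under 13 of 14 alternatives and lost it without moderation (adjusted p = 0.277), with adjusted p-values between 0.000131 and 0.277. FAT1 kept it under 10 and lost it without moderation (0.322), against a log2 change of 0.5 (0.294), without control replicate 1 (0.0619) and without miR-543 replicate 1 (0.0518). It stayed just under the threshold without control replicate 2 (0.05 after rounding), and its direction held throughout. TWIST1 and F11-AS1 also lost the call without moderation (0.354 and 0.313) and against a log2 change of 0.5 (0.189 and 0.175).

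With the trend and robust prior 2 members were called lower (DCHS2 joined, 0.0406) and 252 probe sets in all. Without moderation 0 members (0 higher, 0 lower; 5 at an unadjusted p under 0.05) and 2 probe sets passed. Against a log2 change of 0.5 the count was 1 member, 0 higher (3 at an unadjusted p under 0.05), and 12 probe sets. With each array left out in turn, 1 to 2 members were called, 0 to 1 of them higher, and 34 to 59 probe sets. The fall in counts without an array goes with fewer samples, and the cause of the other shifts was not tested. With only probe sets above the median the median change of members was -0.077, since 8 genes remain.

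Same-numbered arrays had correlations of deviations from the group means of 0.095, -0.053 and 0.018, against -0.094 to 0.066 for differently numbered ones. The value of the replicate 1 arrays lay above that range, but all were small, and the numbers are not treated as pairs. The replicate block called 71 probe sets and 2 members. Of 39 uncalled named members 1 was called under some alternative and 9 changed sign under at least 1. Signal over background was not measured, so low signals limit what can be read.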
